A study of Mus musculus with 4 samples.

Results

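Rn7sk (7SK RNA), Rn4.5s (4.5S RNA) and Terc (telomerase RNA) were followed through the 4 libraries of an RNA immunoprecipitation (IP) study of mutant Dis3l2 in mouse embryonic stem cells. These 3 structured noncoding RNAs were picked by gene name from the 20793 gene names of the 2 deposited tables, and because they were less than 4-fold apart between the IPs. Their ratio of mutant IP to mock IP is therefore given as a description only. They occupy 4 rows, since Rn7sk (ENSMUST00000083103.1) is listed among 6311 noncoding transcripts, Rn4.5s (NR_002841) among 16470 transcripts of the mRNA table, and Terc in both (ENSMUST00000082862.1 and NR_001579).

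The groups were mutant IP and mock IP, recovered on anti-FLAG M2 gel, and mutant input and mock input, which had been depleted of ribosomal RNA with Ribominus. The mutant samples come from cells given FLAG-tagged mutant Dis3l2 by transfection, with a mutation that the labels do not name, and the mock samples from mock-transfected cells. All were C57BL/6 cells at passage 25 to 30, grown on gelatin with no feeder cells, in medium with LIF and serum, and the labels name no other agent. Each group is 1 library, so no difference below has a replicate check, and no source used here says whether the IP RNA was also depleted of ribosomal RNA.

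Dis3l2 is an exoribonuclease that degrades RNA from the 3′ end and prefers tails of uridine. 7SK is a small nuclear RNA made by RNA polymerase III that, with the proteins Larp7, Mepce and Hexim1, holds the elongation kinase Cdk9 and its cyclin T partners inactive. 4.5S RNA is a short polymerase III transcript of rodents that resembles the B1 repeat, and telomerase RNA is the template that the reverse transcriptase Tert copies onto chromosome ends. In mammals the 3′ part of telomerase RNA folds as an H/ACA domain and binds dyskerin (Dkc1), as the H/ACA snoRNAs do.

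The noncoding table held 3183346 reads in the mutant IP, 2157604 in the mock IP, 2746737 in the mutant input and 2738512 in the mock input. The mRNA table held 2275647 and 1860030 reads in the mutant and mock IPs but 307324 and 291175 in the mutant and mock inputs. Rn18s-rs5 alone held 37.1% and 42.4% of noncoding reads in the mutant and mock IPs, against 10.4% and 12.1% in their inputs. Lars2 held 52.0% and 58.6% of mRNA-table reads in the mutant and mock IPs, against 33.3% and 34.8% in their inputs. Shares of a table below depend on these 2 features. The deposited values are reads divided by 1 factor per library, and they are not divided by transcript length, so levels are compared between libraries and not between RNAs. The stem cell markers were present: all 10 had reads in both IPs, summing to 3632 in the mutant IP against 2424 in the mock IP, and to 132 in the mutant input against 176 in the mock input. The 4 fibroblast markers in the table summed to 111 and 28 reads in the mutant and mock IPs, and to 19 and 12 in the mutant and mock inputs. The 3 endoderm markers summed to 20 and 26 in the mutant and mock IPs and to 2 and 0 in the inputs, but Gata4 had 20 reads in the mutant IP against 0 in the mock IP, Afp 0 against 25 and Gata6 0 against 1. Of the fibroblast markers, Col1a1 had 73 reads in the mutant IP against 23 in the mock IP, Thy1 26 against 3, Acta2 12 against 1 and Col1a2 0 against 1. The part of these cells in the differences below was not tested.

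The 3 RNAs followed different courses. Rn7sk and Rn4.5s were far more abundant in the IPs than in the inputs, with or without the tagged protein, whereas Terc was far below its input in both IPs. Between the IPs the ratio of mutant to mock was lowest for Rn7sk, at 1.39, and highest for Rn4.5s, at 2.54. The place of Terc is not settled, since its interval from 13 and 6 reads, 0.711 to 6.44, includes both values. Between the inputs the ratio of mutant to mock was 2.23 for Terc and 0.855 for Rn4.5s.

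Rn7sk had deposited values of 418.9 in the mutant IP, 301.6 in the mock IP, 76.7 in the mutant input and 48.8 in the mock input. These stand for 1131, 754, 138 and 122 reads. Both IPs were above both inputs, and in each pair the mutant library was above the mock library.

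The ratio of mutant IP to mock IP was 1.39 for Rn7sk, with a 95% interval of 1.27 to 1.52. All intervals here concern single libraries or the 2 or 4 libraries of a ratio, not the conditions, and cover counting error only. The intervals treat reads as independent, and PCR copies are not independent molecules, so they may be too narrow even for that. The median ratio over all 3506 measured noncoding features was 1.38, so that 7SK lay at the middle of its table. Among the 922 noncoding features with at least 100 reads in the IPs, 470 had a lower ratio and 451 a higher one. As a share of all noncoding reads, Rn7sk held 0.0355% of the mutant IP (exact 95% interval 0.0335 to 0.0377) and 0.0349% of the mock IP (0.0325 to 0.0375). The ratio of these shares was 1.02 (0.926 to 1.12).

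Against input, 7SK was 5.46-fold higher in the mutant IP than in the mutant input (4.58 to 6.57). In mock cells, which lack the tagged protein, it was 6.18-fold higher in the IP than in the input (5.10 to 7.55). Of the 903 noncoding features with at least 100 reads in these mock libraries, 863 had a lower ratio of IP to input. Taken over both conditions, the specific IP enrichment of Rn7sk, which sets the mutant's ratio of IP to input over the mock's, was 0.884 (0.681 to 1.15), or -0.17 on the log2 scale with a pseudocount of 1. This value contains the ratio between the IPs by which the RNAs were chosen, here and for the other RNAs below, and is likewise a description.

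**Figure D1:**
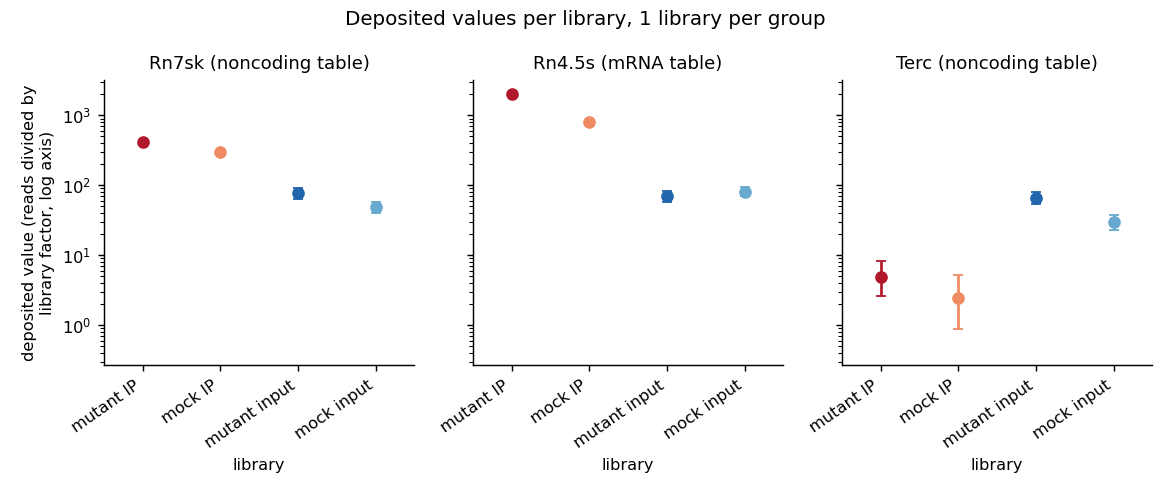
Deposited values (reads divided by the library's factor, log axis) of Rn7sk, Rn4.5s and Terc in the mutant IP, mock IP, mutant input and mock input. Points are single libraries and bars are exact 95% Poisson intervals; Rn7sk and Rn4.5s are higher in the IPs and Terc is higher in the inputs.

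Rn4.5s had deposited values of 2052 in the mutant IP, 806.4 in the mock IP, 69.4 in the mutant input and 81.2 in the mock input. These came from 5540, 2016, 125 and 203 reads. The IPs were again both above the inputs, but the mutant library was the higher of the IPs and the lower of the inputs. 4.5S RNA has near-identical copies and related repeats in the genome, and no source used here says how reads with several alignments were treated. Its reads may therefore come from more than 1 locus.

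Between the IPs the Rn4.5s ratio was 2.54 (2.42 to 2.68), and of 4472 features of the mRNA table with at least 100 IP reads, 4192 had a lower ratio. The median over all 14273 measured features was 1.30. The shares of mRNA-table reads were 0.243% in the mutant IP (0.237 to 0.25) and 0.108% in the mock IP (0.104 to 0.113), and their ratio was 2.25 (2.13 to 2.37). The IP reads were many, so counting error was small beside the difference, but a single pair of libraries does not show how far 2 IPs of the same cells would differ.

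Between the inputs, a measure the choice of RNAs did not use, Rn4.5s was at 0.855 times its mock level in the mutant (0.679 to 1.07). The interval includes 1. In shares of the table the ratio was 0.583 (0.463 to 0.733). Shares do not use the library factors, which were 1.8 for the mutant input and 2.5 for the mock input. Leaving out these factors multiplies the input ratio of every feature by 0.72, and equal table totals multiply it by 0.682. As deposited, the median input ratio of that table was 1.42. Of 469 features with at least 100 input reads, 40 had a lower ratio than Rn4.5s and 428 a higher one.

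4.5S RNA was 29.5-fold higher in the mutant IP than in its input (24.7 to 35.6) and 9.93-fold higher in the mock IP than in its input (8.59 to 11.5). It was thus well above input also where no tagged protein was present. In shares of the table these ratios were 5.99 (5.01 to 7.20) in the mutant and 1.55 (1.35 to 1.8) in the mock, since the IPs held several times more mRNA-table reads than the inputs. Of 2195 mRNA-table features with at least 100 reads in the mock libraries, 1193 had a lower ratio of IP to input, so Rn4.5s lay near the middle there. In the mutant libraries, 2668 of 3082 such features had a lower ratio. The specific IP enrichment was 2.97 (2.37 to 3.74), or 1.57 on the log2 scale with a pseudocount of 1.

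**Figure D2:**
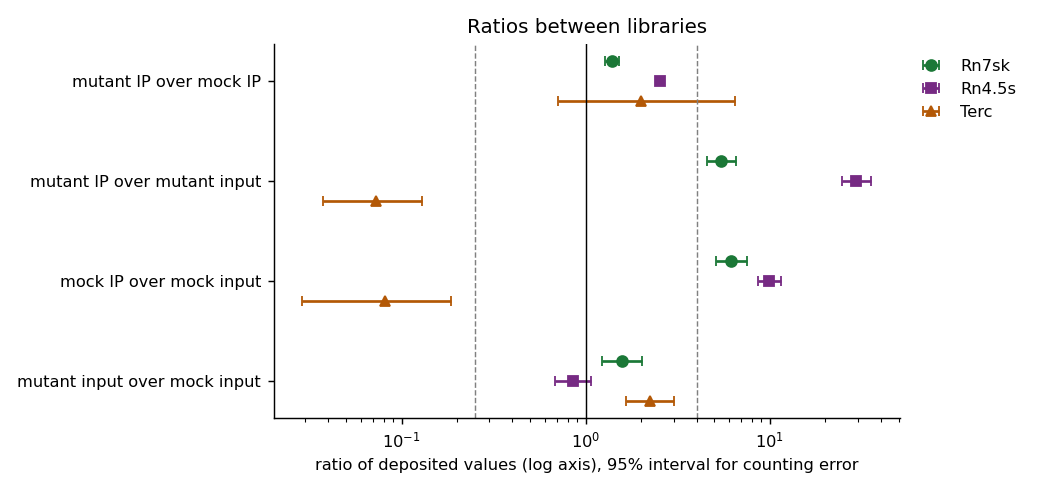
Ratios of deposited values (log axis) for Rn7sk, Rn4.5s and Terc between mutant IP and mock IP, between IP and input in each condition, and between the inputs. Bars are exact 95% intervals for counting error, the solid line marks equality and dashed lines mark 4-fold; Terc lies left of the lower 4-fold line in both ratios of IP to input, and Rn7sk and Rn4.5s right of the upper one.

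Terc had deposited values of 4.81 in the mutant IP, 2.40 in the mock IP, 66.1 in the mutant input and 29.6 in the mock input of the noncoding table. These were 13, 6, 119 and 74 reads. The mRNA table gave the same reads but for 73 in the mock input, so the rows are 1 measurement listed in both tables. Both IPs were far below both inputs, the reverse of 7SK and 4.5S RNA.

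Telomerase RNA was at 0.0728 times its input level in the mutant IP (0.0377 to 0.129) and at 0.0811 times in the mock IP (0.0288 to 0.185), which is 13.7- and 12.3-fold lower. In shares of the noncoding table it was 10.6-fold lower than input in the mutant and 9.72-fold lower in the mock. In shares of the mRNA table, whose inputs were shallow, the same reads gave 67.8-fold and 77.7-fold lower. Of 972 noncoding features with at least 100 reads in the mutant libraries, 95 had a lower ratio of IP to input.

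Between the IPs the Terc ratio was 2.01, but with 13 and 6 reads its interval ran from 0.711 to 6.44. The specific IP enrichment was 0.898 (0.327 to 2.47), or -0.36 on the log2 scale with a pseudocount of 1. This interval leaves room for changes of more than 2-fold in either direction.

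Between the inputs Terc was 2.23-fold higher in the mutant (1.66 to 3.03). It was the only 1 of the 3 RNAs at least 2-fold higher there, against 29% of noncoding features (percentage at least 2-fold higher over 2533 measured). Of 865 features with at least 100 input reads, 813 had a lower ratio than Terc. In shares of the table the ratio was 1.60 (1.19 to 2.17), and the row of the mRNA table gave 2.26 for the deposited values and 1.54 (1.15 to 2.10) for the shares. Rn7sk was 1.57-fold higher in the mutant input (1.22 to 2.02), which became 1.13 (0.878 to 1.45) in shares, so for 7SK a difference between the inputs was not detectable by share.

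As counts, 2 of the 3 RNAs were at least 4-fold above input in the mutant IP and 1 was at least 4-fold below, and the mock IP gave the same counts. Over all noncoding features, 25.7% lay at least 4-fold above input and 10.3% below it in the mutant, against 23.5% above and 10.7% below in the mock. In the mRNA table, which lists Rn4.5s, 61.1% were at least 4-fold higher in the mutant and 60.6% in the mock. The position of Rn4.5s above its input was therefore shared by most of its table, whereas 7SK passed a threshold that a minority of the noncoding table passed. This contrast depends on which table lists each RNA. By deposited values Rn4.5s was further above input, at 29.5-fold against 5.46-fold for Rn7sk in the mutant. In the mock the values were 9.93-fold and 6.18-fold. The mRNA-table median, with a pseudocount of 1, was 5.44-fold in the mutant and 5-fold in the mock. For the ratio of mutant IP to mock IP, where 0 of the 3 RNAs passed by the rule itself, 13.5% of noncoding features and 10.1% of the mRNA table were at least 4-fold higher, and 5.99% and 5.74% lower.

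Set against each other within the same libraries, where the library factors cancel, the RNAs differed most in the ratio of IP to input. That ratio was 75-fold higher for Rn7sk than for Terc in the mutant (41.2 to 137) and 76.2-fold higher in the mock (32.5 to 179). It was 5.41-fold higher for Rn4.5s than for Rn7sk in the mutant (4.21 to 6.95) but 1.61-fold higher in the mock (1.26 to 2.04). The specific IP enrichment of Rn4.5s was 3.36 times that of Rn7sk (2.38 to 4.76). Between the inputs the ratio of mutant to mock for Rn4.5s was 0.544 times that of Rn7sk (0.391 to 0.757) and 0.383 times that of Terc (0.266 to 0.552). For Rn7sk it was 0.703 times that of Terc, and this interval included 1 (0.482 to 1.03).

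Terc was set beside the H/ACA snoRNAs, which guide pseudouridylation and share its protein partners. Of 38 Snora genes with a noncoding row, 25 had at least 50 reads in the input of each condition. In the mutant, 24 of these 25 had a lower ratio of IP to input than Terc, with a median of 0.00310 and a highest value of 0.103 for Snora81. In the mock, 23 of 25 were lower than Terc, and the exceptions were Snora31 at 0.192 and Snora81 at 0.110. No read at all was found for 5 of the 25 in the mutant IP and for 12 in the mock IP. These counts rank the ratios without their intervals. Those of Terc ran from 0.0377 to 0.129 in the mutant and from 0.0288 to 0.185 in the mock. The intervals of some Snora genes counted as lower overlapped them.

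Telomerase RNA was thus depleted in the IPs along with the H/ACA snoRNAs, but less than most of them. The abundant Snora64, chosen for its depth, had a ratio of IP to input 58.2 times lower than Terc in the mutant (interval 26 to 130). In the mock the same comparison gave 42.9-fold (15.9 to 116). Between the inputs 24 of the 25 Snora genes had a lower ratio of mutant to mock than Terc, around a median of 1.21, and the exception was Snora3 at 2.99 (2.22 to 4.07). Of the 5 Scarna genes with as many input reads, which guide modification of spliceosomal RNAs, all 5 were below Terc in both ratios of IP to input.

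**Figure D3:**
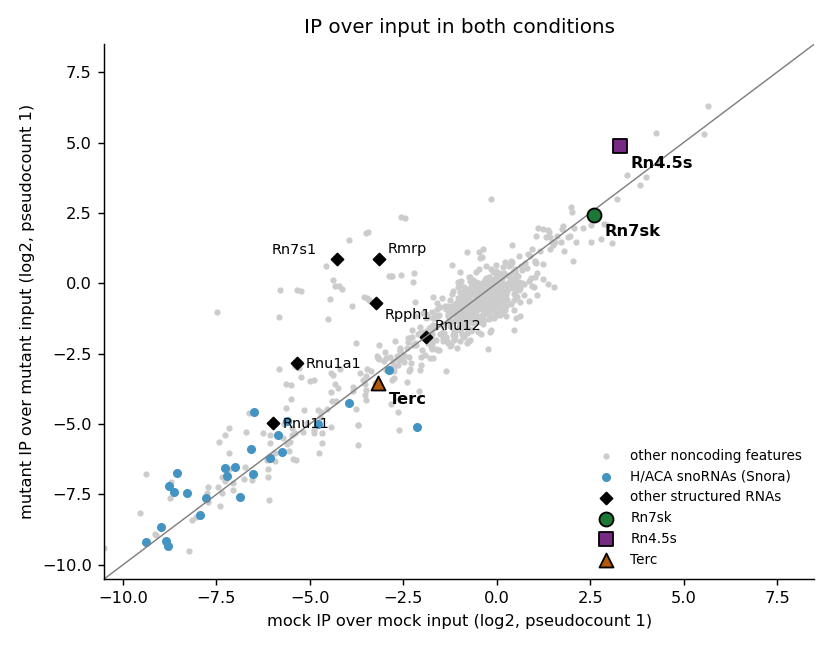
IP over input in the mutant (vertical axis) against IP over input in the mock (horizontal axis), both log2 with a pseudocount of 1, for 781 noncoding features with at least 50 reads in each input, with Rn4.5s added from the mRNA table. The line marks equal ratios. Rn7sk and Terc lie close to it, Rn7sk above its input in both conditions and Terc below its input in both. Terc lies at the upper end of 25 Snora genes, and Rn7s1, Rmrp, Rpph1 and Rnu1a1 lie well above the line.

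Some other structured RNAs are given for scale. Their distance from the 3 RNAs between the IPs follows from the choice of RNAs under 4-fold there, and Rnu11 and Rnu12 were under 4-fold too. Rn7s1, the 7SL RNA of the signal recognition particle and like 7SK a polymerase III transcript, reached 1.8 times input in the mutant IP, against 0.0513 times in the mock IP. In the mock, the ratio of IP to input was 121-fold higher for Rn7sk than for Rn7s1 (98.4 to 148), and in the mutant it was 3.04-fold higher (2.54 to 3.63).

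Terc and Rn7s1 were both below input in the mock IP, with a quotient of their ratios of IP to input of 1.58 (0.686 to 3.64). For the choice of the 3 RNAs, the nearest of the comparison RNAs below 4-fold between the IPs was Rnu11 at 2.83, just above Rn4.5s at 2.54. The nearest above 4-fold was the RNase P RNA Rpph1 at 7.43. Rnu12, a minor spliceosomal snRNA at 2.51, resembled Terc in being below input in both conditions and higher in the mutant input, at 2.5-fold (2.14 to 2.91).

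The features with the most similar profile over the 4 libraries were sought among 1242 noncoding features with at least 100 reads in all. Likeness was the distance between log2 values after each feature's own mean was subtracted. For Rn7sk the nearest were Gm26809, Gm3892, 2410018L13Rik, Gm42765 and Gm10874, at distances of 0.14 to 0.31. Gm26809 had 305, 179, 34 and 31 reads in the mutant IP, mock IP, mutant input and mock input.

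For Terc the nearest were EU599041, Gm20644, Gm4779, Snora81 and Gm22270, at 0.37 to 0.56. Snora81 had 15, 9, 97 and 82 reads in the same order, close to the 13, 6, 119 and 74 of Terc. For Rn4.5s the nearest noncoding features were Gm42890, Nphs1os, Gm26885, Gm43673 and BC002059, at 0.45 to 0.55. They had 0 to 2 reads in each input, so their likeness rests on the pseudocount. The mRNA table, which lists Rn4.5s, was not searched for similar profiles.

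Transcripts of the proteins that bind 7SK, of the kinase it holds and of other pause-release factors were examined in the mRNA table, which was deep only in the IPs. All 22 were measured, and 0 were at least 4-fold higher or lower between the IPs, against 10.1% and 5.74% of all features. Those shares cover every feature with a value of at least 1 in an IP, of which 4472 had at least 100 IP reads. They were not matched to the list for depth. Their median was 0.40 on the log2 scale, close to 0.38 for all 14273 features, and 16 of 22 had a ratio above 1, against 65% of all features.

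Larp7, which binds the uridine-rich 3′ end of 7SK, had 35 mutant IP reads against 17 mock IP reads, a ratio of 1.91 (1.04 to 3.63). Mepce, which caps its 5′ end, had 31 and 44 reads, a ratio of 0.652 (0.398 to 1.06). Hexim1, the inhibitor of the kinase, had 135 and 92 reads and a ratio of 1.36 (1.04 to 1.79). Cdk9, the kinase, gave 231 and 140 reads and 1.53 (1.23 to 1.90), and its cyclin partner Ccnt1 gave 89 and 43 reads and 1.92 (1.32 to 2.83). The highest was Nelfe, a subunit of the negative elongation factor, at 2.19 (1.38 to 3.58).

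Between the inputs, 2 of the 21 measured genes of this list were at least 4-fold higher in the mutant and 2 lower, against 10% and 4.74% of 9367 features of the mRNA table. The higher ones were Polr2a, the largest subunit of RNA polymerase II, at 4.55-fold (2.65 to 8.20), and Hnrnpr, with 6 reads in the mutant input against 0 in the mock input. With 3 reads per library as the floor, Hnrnpr was at least 2.775-fold higher, so it passed 4-fold only with the pseudocount. The lower ones were Mepce, with 0 reads against 17 and at least 4.08-fold lower, taking 3 reads per library as the floor, and Hnrnpa2b1 at 0.174 times (0.0446 to 0.490). Larp7 had 0 reads in the mutant input and 3 in the mock input, too few for a comparison.

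Transcripts for telomerase, its assembly, the 3′ end processing of its RNA and the telomere-binding shelterin complex were examined in the same way. All 25 were measured, and 0 were at least 4-fold higher or lower between the IPs, against 10.1% and 5.74% of all features, again not matched for depth. Their median was 0.19 on the log2 scale, against 0.38 for all features, and 17 of 25 had a ratio above 1, against 65% of all features. Tert, the reverse transcriptase, had 86 mutant IP reads against 66 mock IP reads, a ratio of 1.21 (0.865 to 1.69), and 0 reads in either input. Dkc1, which binds the H/ACA domain, had 191 and 145 reads and a ratio of 1.22 (0.978 to 1.52). Wrap53, which brings telomerase to Cajal bodies, had 35 and 28 reads and a ratio of 1.16 (0.684 to 1.97).

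Parn, a deadenylase that trims the 3′ end of human telomerase RNA, had 66 and 23 reads and a ratio of 2.66 (1.63 to 4.48). Papd5, the polymerase that adds adenosines to that end in human cells, had 109 and 95 reads and a ratio of 1.06 (0.799 to 1.41). The extremes of the list were Coil, the coilin of Cajal bodies, at 3.56 (2.12 to 6.24), and Pot1b, a shelterin subunit, at 0.322 (0.193 to 0.519). Ssb, the La protein that binds the uridine ends of new polymerase III transcripts, had 36 mutant IP reads against 65 mock IP reads, a ratio of 0.513 (0.331 to 0.782).

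Between the inputs, 18 genes of the telomerase list were measured, of which 1 was at least 4-fold higher in the mutant and 3 lower. Over 9367 features of the mRNA table, 10% were higher and 4.74% lower. Zcchc8, an adaptor of the nuclear exosome, had 11 reads in the mutant input against 0 in the mock input, at least 5.09-fold higher by the floor of 3 reads. Nop10, Terf1 and Terf2 had 0 reads in the mutant input against 11, 12 and 11 in the mock input. By the same floor they were at least 2.64-, 2.88- and 2.64-fold lower, so they passed 4-fold only with the pseudocount.

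**Figure D4:**
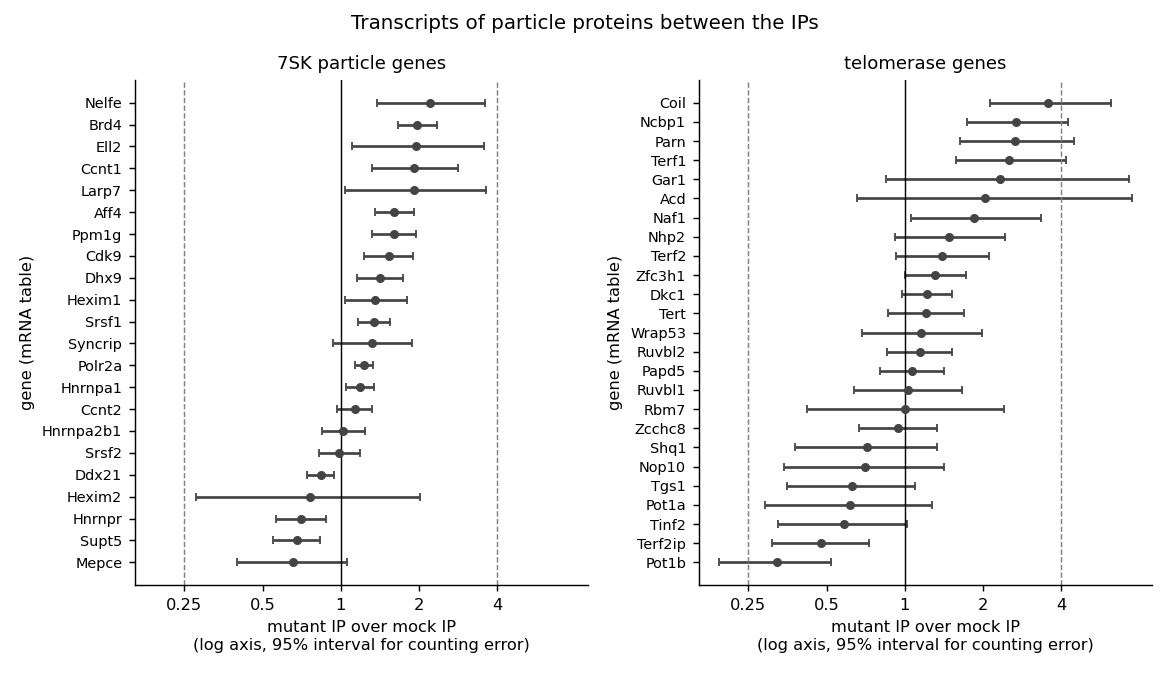
Ratio of mutant IP to mock IP (log axis) in the mRNA table for 22 genes of the 7SK particle and pause release (left) and 25 genes of telomerase and shelterin (right), ordered by ratio. Bars are exact 95% intervals for counting error and dashed lines mark 4-fold; every point lies between the dashed lines, with Coil at 3.56 and Pot1b at 0.322 nearest to them.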

How the data were processed

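Both tables deposited by the authors have a column for each library; reads were aligned with Bowtie to mm9, per the submitters' processing notes. No source used here gives the counting tool, the use of strand or the treatment of multiple alignments. The deposited unit is a signal: 100% of values were whole reads, within 0.02 reads, divided by 2.7 (mutant IP), 2.5 (mock IP), 1.8 (mutant input) or 2.5 (mock input), so reads were recovered. With 1 library per group no count test was possible.

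For symbols with several transcripts the highest mean stood for the gene; 26 date-like names were restored through RefSeq accessions (GRCm38 table). Log2 ratios used a pseudocount of 1, for features with a value of at least 1 in a library of the ratio. Ratios of 2 libraries carry exact conditional binomial 95% intervals (SciPy 1.17.1, tested on simulated data). Quotients of ratios carry log-normal intervals from read counts, which were not tested in that way. Named genes were the 3 RNAs, listed partners, comparison RNAs, extremes and the 5 nearest profiles. Snora81, Snora31, Snora3, Snora64, Malat1, Nelfe, Coil, Pot1b, the genes past 4-fold between the inputs and single marker genes were named after their values were seen. The RNAs and lists were chosen with earlier results of these data known.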

Additional observations from a re-analysis of the deposited data

Results flagged for a closer look

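Rn4.5s was 2.54-fold higher in the mutant than in the mock between the IPs, and at 0.855 times the mock level between the inputs, so the mutant and mock libraries stood in opposite order. The difference was not tested, since each group is 1 library, and the input interval (0.679 to 1.07) includes 1. In shares of the table the input ratio was 0.583 (0.463 to 0.733), an interval below 1.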

How the results depend on the processing

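No paired analysis was possible because each group holds 1 library, and for the same reason no replicate could be left out. Values are log2. For Rn7sk, mutant IP over mock IP was 0.47 as deposited, 0.024 with equal table totals and 0.085 with libraries centred on the median. It turned to -0.11 with equal totals without Rn18s-rs5, the most abundant noncoding RNA in the mock IP, a setting chosen after seeing the data. Its specific IP enrichment of -0.17 became 0.41 with reads left unscaled. For Rn4.5s, mutant IP over mock IP was 1.35 as deposited, 1.17 with equal totals, 0.95 with equal totals without Lars2, 1.01 when centred and 1.46 with unscaled reads. Its specific IP enrichment of 1.57 became 1.94 with equal totals and 2.15 with unscaled reads, which is past 4-fold. These shifts come from the scaling itself, which multiplies every feature of a library alike. Terc stayed within its counting interval under every alternative run, and its specific IP enrichment changed sign, to 0.32, with unscaled reads. The 2 protein lists kept a count of 0 past 4-fold with a minimum mean of 5 and with equal totals. No member had several rows in 1 table, so summing rows gave no value. Depth limits Terc most, at 13 and 6 IP reads.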
